A study of Drosophila melanogaster with 3 samples.

Results

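Aminoacyl-tRNA synthetase genes were examined as a gene family among the sites of CG2116-eGFP in Drosophila melanogaster embryos. The members were chosen by symbol alone, as the protein-coding genes of the Ensembl BDGP6 annotation named for an amino acid followed by RS, with an optional alpha or beta prefix and an optional -m suffix for the mitochondrial enzyme. The rule gave 35 of the 13945 protein-coding genes on the 6 main chromosome arms, of which 15 carry the -m suffix and 20 do not. The 20 are called cytosolic here by symbol alone, and whether any of them also serves mitochondria was not examined. The study mapped a CG2116 protein fused to eGFP at its C terminus by chromatin immunoprecipitation with an anti-GFP antibody and sequencing (ChIP-seq), in mixed-sex whole embryos aged 0 to 24 h from a transgenic strain that carries the fusion. The 3 libraries, numbered 1, 2 and 4 as biological replicates, form 1 group with no second condition, so the values below describe this group and no test between conditions was possible. Whole embryos mix all cell types of these stages, and no peak list from an untagged line was used here.

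Synthetases join each amino acid to its matching transfer RNA (tRNA) and so supply every ribosome with its substrates. They fall into class I and class II by the fold of the catalytic domain. In animals the cytosolic and mitochondrial ribosomes are mostly served by enzymes from separate nuclear genes, and several cytosolic enzymes assemble with the AIMP scaffold proteins into a multisynthetase complex. The symbols here give 15 amino acids a gene for each compartment, whereas glutamine, glycine, histidine, lysine and threonine have a member without the suffix only. GluProRS is bifunctional and charges both glutamate and proline tRNAs, and alpha-PheRS and beta-PheRS are the subunits of the cytosolic phenylalanine enzyme.

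All 20 cytosolic synthetase genes had a CG2116-eGFP peak at the start, and the mitochondrial genes were divided. A gene was counted as bound when a summit among the 7137 peaks kept by the irreproducible discovery rate (IDR) filter lay within 500 bp of any annotated transcription start site (TSS). By this rule 27 of the 35 members were bound, 77.1%, beside 42.6% of all protein-coding genes. The cytosolic count was 20 of 20 and the mitochondrial count was 7 of 15, or 46.7%, which is close to the share of all genes. AspRS was counted through a TSS inside the gene, with no IDR summit within 500 bp of the 5′ end of its gene model. The bound mitochondrial members were ArgRS-m, AspRS-m, CysRS-m, LeuRS-m, PheRS-m, ProRS-m and TrpRS-m. AlaRS-m, AsnRS-m, GluRS-m, IleRS-m, MetRS-m, SerRS-m, TyrRS-m and ValRS-m had no IDR summit in the window. Class I members were bound at 13 of 18 and class II members at 13 of 16, with GluProRS, which joins both classes, bound as well. All 8 members that belong to the multisynthetase complex in animals (GluProRS, IleRS, LeuRS, MetRS, GlnRS, LysRS, ArgRS and AspRS) were bound, as were the 12 cytosolic members outside it.

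The distance threshold did not split close cases. The farthest strongest summit of a bound member was that of ValRS, 459 bp upstream of its TSS. The members without an IDR summit had their nearest one between 2007 bp away, at ValRS-m, and 18155 bp away, at MetRS-m. The relaxed pooled list, with 30000 peaks, had a summit within 500 bp of all 35 members, beside 60.4% of all protein-coding genes. At the 8 members that were not bound this pooled signal ran from 41.8 at SerRS-m to 120.3 at MetRS-m, under the 144.1 of the weakest IDR peak.

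The arrangement of neighbouring genes differed between the compartments and was set beside the counts for that reason. A divergent start, meaning the TSS of a protein-coding gene on the opposite strand within 1000 bp upstream, was present at 24 of the 35 members, 68.6%, and at 35.6% of all protein-coding genes. It was present at 17 of the 20 cytosolic and 7 of the 15 mitochondrial members. All 8 members of the multisynthetase complex had such a start, as did 9 of the 12 cytosolic members outside it. Of the members with a divergent start 21 of 24 were bound, 17 of 17 cytosolic and 4 of 7 mitochondrial, beside 73.6% of all genes arranged in this way. Of the members with no start of another gene within 1000 bp 4 of 9 were bound, beta-PheRS as the only cytosolic member and AspRS-m, PheRS-m and TrpRS-m among 8 mitochondrial members, beside 23.8% of all such genes. AlaRS and CysRS, each with a start of the same strand within 1000 bp and no divergent one, were both bound, beside 32.3% of such genes. The part that the arrangement of starts has in the difference between compartments was not tested.

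**Figure D1:**
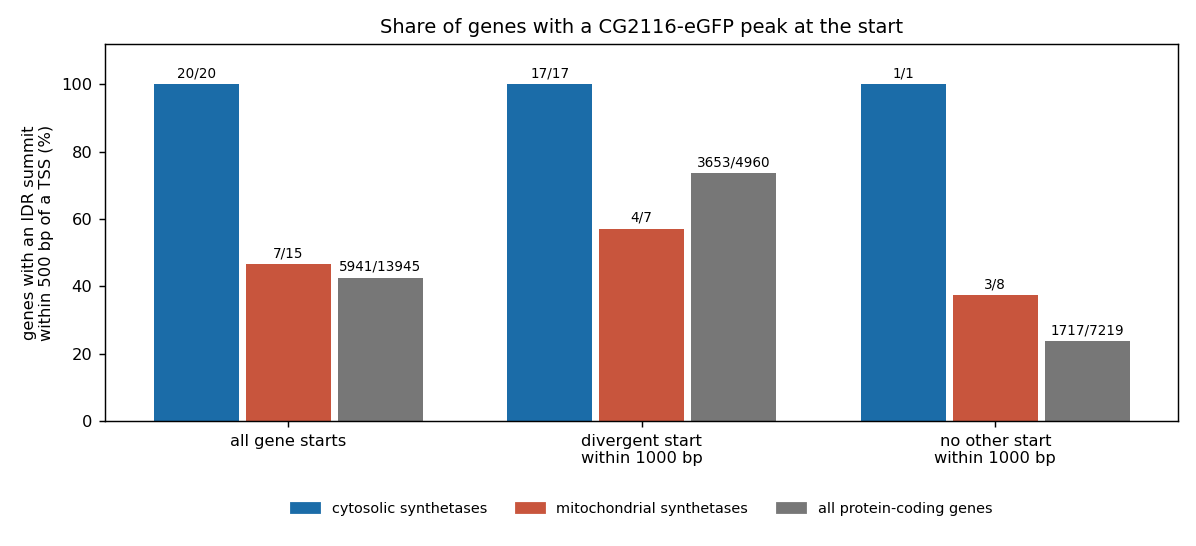
Bars give the share of genes, in percent, whose TSS had an IDR summit at 500 bp or less, for cytosolic synthetases, mitochondrial synthetases and all protein-coding genes, over all starts, over genes with a divergent start within 1000 bp and over genes with no other start within 1000 bp; the numbers above the bars are bound genes over genes. Cytosolic members stand at 20 of 20 and mitochondrial members at 7 of 15, beside 5941 of 13945 genes.

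Paired by amino acid, the cytosolic gene usually had the higher signal. The signal is the authors' peak value, compared here within the pooled list, and each gene was given its strongest summit within 500 bp (for phenylalanine, the lower of both subunit genes). The cytosolic gene was higher for 12 of 15 amino acids, with a median cytosolic to mitochondrial ratio of 4.66 over the 15 pairs. For 8 of the 15 the cytosolic gene alone was bound. It had to be higher there, because every member that was not bound lay under the weakest IDR peak. These 8 pairs restate the split into bound and not bound, and the median ratio is that of tyrosine, which is among them. GluProRS stands in the pairs of both glutamate and proline, so the 12 rest on 11 cytosolic loci. The widest gaps in this direction were serine, at 549 for SerRS and 41.8 for SerRS-m, and isoleucine, at 663 for IleRS and 54.2 for IleRS-m. Both genes were bound for 7 amino acids, and among these the cytosolic gene was higher for arginine, aspartate, proline and tryptophan. The order was the other way for cysteine, at 240.3 for CysRS and 283 for CysRS-m, and for phenylalanine, at 293 for beta-PheRS and 347 for PheRS-m. The phenylalanine order turns with the subunit, since alpha-PheRS stood at 356, and taking it in place of beta-PheRS gave 13 of 15, with the cytosolic gene higher in 5 of the 7 pairs with both bound. For leucine the pooled signal was 199 at LeuRS and 12987 at LeuRS-m, so the family's strongest peak lay at a mitochondrial gene. The pooled values carry no replicate error, so pairs as near as arginine, cysteine and phenylalanine are not resolved by them. For arginine, cysteine and, with alpha-PheRS, phenylalanine the replicates differ in direction by the relative signal described below. ArgRS stood under ArgRS-m in replicate 1, at 1.11 and 1.23, and above it in replicates 2 (1.49 and 0.601) and 4 (1.43 and 1.05). CysRS stood above CysRS-m in replicate 1, at 1.03 and 0.712, and under it in replicates 2 (0.577 and 0.768) and 4 (0.778 and 1.11). The gene alpha-PheRS stood above PheRS-m in replicate 1, at 1.06 and 0.996, and under it in replicates 2 (0.636 and 0.950) and 4 (1.31 and 1.33). In each replicate beta-PheRS stood under PheRS-m.

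**Figure D2:**
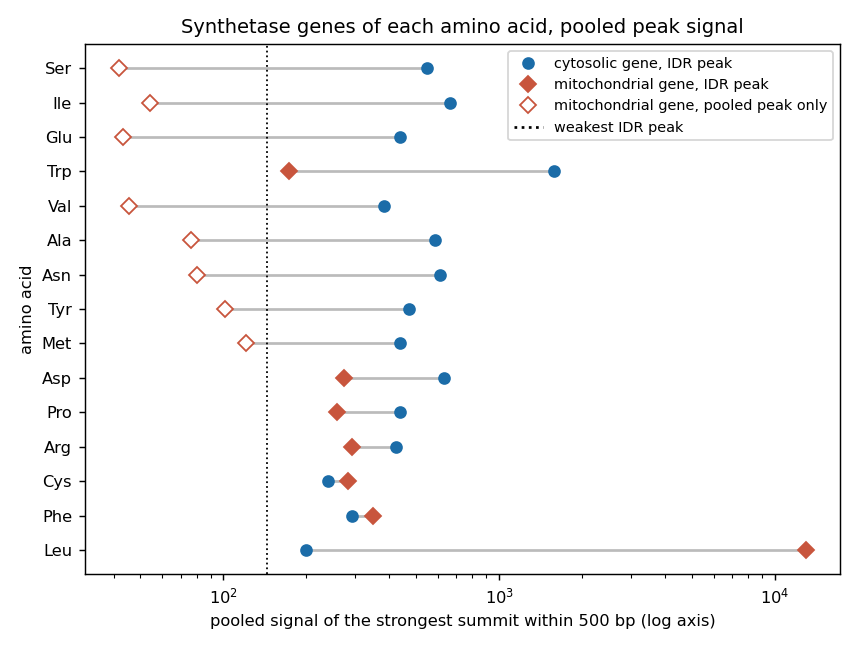
Each row is an amino acid with a synthetase gene for each compartment, and the log axis gives the pooled signal of the strongest summit within 500 bp of the cytosolic gene (circle) and of the mitochondrial gene (diamond, open where it is no IDR peak); the dotted line is the weakest IDR peak. For phenylalanine the circle is beta-PheRS, the lower subunit gene; the circle lies to the right of the diamond in 12 of 15 rows (13 with alpha-PheRS), and LeuRS-m stands apart at 12987.

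In strength the bound synthetase genes resembled bound genes at large. To compare replicates, the signal of the replicate summit nearest to the IDR summit, within 100 bp, was divided by the median of that replicate over the IDR peaks matched in the same way. The mean of this relative signal over replicates had a median of 1.27 over the 27 bound members and 1.33 over the 5941 bound genes. The median was 1.40 for cytosolic and 0.862 for bound mitochondrial members. LeuRS-m, TrpRS and ThrRS, 3 of the 27, were among the strongest 10% of the IDR list. The weakest of them, ThrRS, stood below 961 of the 5941 bound genes by pooled signal. The SD over the mean of the replicates was 21.4% at the median of members matched in all 3, ranging over those 24 genes from 3.22% at LysRS to 58.7% at HisRS, beside 16.5% for bound genes, so members with near means are not ranked apart. Across members, which share the same libraries, Spearman's rho of the relative signal was 0.835 between replicates 1 and 2 (n = 24), 0.843 between 1 and 4 (n = 26) and 0.822 between 2 and 4 (n = 25). Over all bound genes it was higher, at 0.914, 0.897 and 0.850 in the same order (n = 5537, 5614 and 5511).

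**Figure D3:**
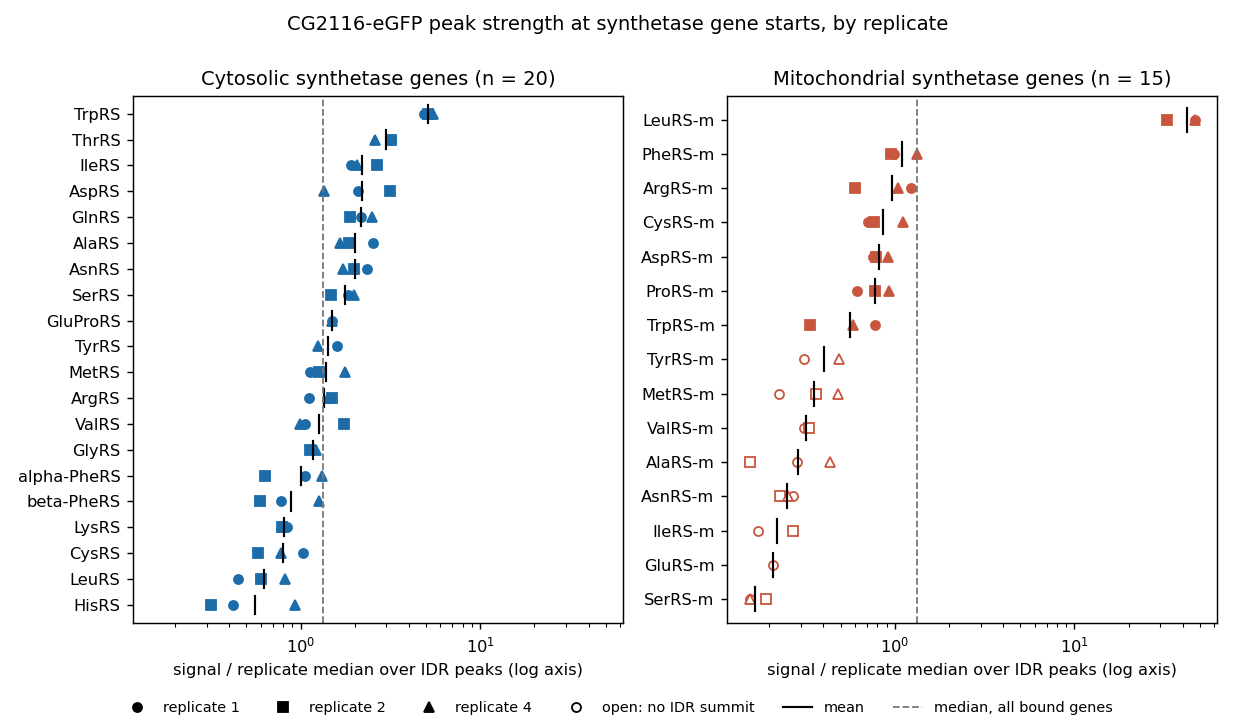
Points give the relative signal (log axis, signal over the replicate's median at IDR peaks) of each synthetase gene in replicates 1, 2 and 4, with cytosolic genes on the left and mitochondrial genes on the right; the short black line is the mean, filled points are IDR peaks, open points are the strongest replicate summit within 500 bp of a gene with no IDR summit, and the dashed line is the median of all bound genes, 1.33. LeuRS-m lies between 32.6 and 46.9 in the 3 replicates, and the genes with open points reach no more than 0.490.

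LeuRS-m, the mitochondrial leucine enzyme, had the strongest peak of the family by a wide margin. Its relative signal was 46.7 in replicate 1, 32.6 in replicate 2 and 46.9 in replicate 4, a mean of 42.1 ± 8.19 (SD, n = 3), and its peak ranked 36 of the 7137 IDR peaks. Every replicate put it above every other member. The summit lay 72 bp upstream of the LeuRS-m TSS and 94 bp upstream of the TSS of Dhc64C, which encodes the heavy chain of cytoplasmic dynein and is transcribed in the other direction, with 166 bp between the starts. The peak therefore sits between both genes and cannot be given to either. LeuRS, which serves the cytosol, was among the weakest bound members, at 0.450, 0.605 and 0.818 in the same order of replicates.

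The sequence under the strongest summits is shown because it is the DNA on which the strongest peaks centre. Each line is the IDR summit with 50 bp on either side, 5′ to 3′ along the synthetase gene, read from the RefSeq copy of the dm6 assembly, with capitals marking a match to any of 7 promoter motifs described further on. The first 4 are the cytosolic members with the highest mean relative signal and the next 4 the mitochondrial ones, leaving out AspRS, PheRS-m and CysRS-m, whose sequences are not printed. The windows lie at chr3R:9266906-9267006 (minus strand) for TrpRS, chr2L:12103552-12103652 (plus strand) for ThrRS, chr3L:22288467-22288567 (plus strand) for IleRS and chr3R:25265761-25265861 (minus strand) for GlnRS. Those of the mitochondrial genes lie at chr3L:4825731-4825831 (plus strand) for LeuRS-m, chr3R:7886895-7886995 (plus strand) for ArgRS-m, chr2L:16827020-16827120 (plus strand) for AspRS-m and chr3L:2651943-2652043 (minus strand) for ProRS-m.
TrpRS: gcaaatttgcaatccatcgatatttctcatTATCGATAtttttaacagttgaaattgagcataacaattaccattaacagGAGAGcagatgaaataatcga
ThrRS: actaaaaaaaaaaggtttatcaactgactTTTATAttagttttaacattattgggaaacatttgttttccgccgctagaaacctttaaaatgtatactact
IleRS: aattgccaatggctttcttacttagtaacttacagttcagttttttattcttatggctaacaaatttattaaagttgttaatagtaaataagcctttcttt
GlnRS: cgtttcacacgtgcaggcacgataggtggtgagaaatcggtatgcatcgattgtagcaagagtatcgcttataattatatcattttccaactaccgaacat
LeuRS-m: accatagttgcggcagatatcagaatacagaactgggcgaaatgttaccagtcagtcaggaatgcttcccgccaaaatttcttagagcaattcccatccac
ArgRS-m: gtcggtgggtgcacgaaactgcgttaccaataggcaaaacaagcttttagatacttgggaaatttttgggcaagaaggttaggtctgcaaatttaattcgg
AspRS-m: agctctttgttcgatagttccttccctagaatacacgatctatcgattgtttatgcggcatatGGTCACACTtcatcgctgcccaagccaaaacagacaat
ProRS-m: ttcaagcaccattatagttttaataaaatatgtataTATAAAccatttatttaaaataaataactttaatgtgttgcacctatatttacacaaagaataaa
The capitals are a TATCGATA and a GAGAG in TrpRS, a TATAAA read on the other strand in ThrRS, a GGTCACACT in AspRS-m and a TATAAA in ProRS-m. IleRS, GlnRS, LeuRS-m and ArgRS-m hold no match in this window.

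TrpRS and ThrRS led the cytosolic enzymes. TrpRS, the tryptophan enzyme, stood at 4.84, 5.08 and 5.48 in replicates 1, 2 and 4, a mean of 5.13 ± 0.321 (SD, n = 3). Its summit lay 52 bp upstream of its own TSS and 63 bp upstream of that of Vps16A, which encodes a subunit of vesicle tethering complexes. ThrRS, the threonine enzyme, stood at 3.17, 3.18 and 2.59, a mean of 2.98 ± 0.341. In each replicate TrpRS was above ThrRS, and both were above every other cytosolic member in replicates 1 and 4. In replicate 2 ThrRS, at 3.18, was level with AspRS, at 3.14.

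Further cytosolic genes followed, with a mean relative signal from 2.21 at IleRS to 1.27 at ValRS. IleRS stood at 1.90, 2.66 and 2.07 in replicates 1, 2 and 4, and AspRS at 2.10, 3.14 and 1.36. GlnRS, the glutamine enzyme, stood at 2.16, 1.88 and 2.50. These members overlap in their replicate values and are not ordered by them. AlaRS stood at 2.52, 1.85 and 1.65, AsnRS at 2.33, 1.98 and 1.72 and SerRS at 1.83, 1.48 and 1.98. These genes charge alanine, asparagine and serine tRNAs, and their values overlap with those of IleRS, AspRS and GlnRS. MetRS, whose enzyme also charges the initiator tRNA, stood at 1.12, 1.26 and 1.77. ArgRS stood at 1.11, 1.49 and 1.43 and ValRS at 1.06, 1.75 and 0.989. IleRS and GlnRS were above MetRS, ArgRS and ValRS in every replicate.

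The replicate values of 3 cytosolic members rest on 2 libraries, because the third had its nearest summit beyond the 100 bp limit. GluProRS stood at 1.50 in replicates 1 and 4, and the nearest summit of replicate 2 was 102 bp away. TyrRS, the tyrosine enzyme, stood at 1.59 in replicate 1 and 1.25 in replicate 4, with the nearest replicate 2 summit 110 bp away. GlyRS, the glycine enzyme, stood at 1.13 in replicate 2 and 1.22 in replicate 4, with the nearest replicate 1 summit 161 bp away. TyrRS, GlyRS and AspRS each had a second, weaker IDR summit within 500 bp of the TSS.

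The weakest cytosolic genes lay around or under the median of their replicates. The subunit gene alpha-PheRS stood at 1.06, 0.636 and 1.31 in replicates 1, 2 and 4, and beta-PheRS at 0.781, 0.597 and 1.27. The ranges of both subunit genes overlapped, though alpha-PheRS was the higher in each replicate. LysRS, the lysine enzyme, varied least among the members matched in all 3 replicates, at 0.837, 0.788 and 0.796. CysRS stood at 1.03, 0.577 and 0.778. HisRS, the histidine enzyme, was the least even of those members, at 0.421, 0.319 and 0.929. Its mean was the lowest of the cytosolic genes, but in replicate 4 it stood above LeuRS, LysRS and CysRS, and its pooled signal of 201.4 was close to the 199 of LeuRS, so the weakest cytosolic gene is not resolved. A transcript of Bx, a neighbour of HisRS, is annotated from the same base.

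Apart from LeuRS-m, the bound mitochondrial genes were of moderate strength. PheRS-m stood at 0.996, 0.950 and 1.33 in replicates 1, 2 and 4. ArgRS-m stood at 1.23, 0.601 and 1.05, and CysRS-m at 0.712, 0.768 and 1.11. The ranges of these genes overlap, though PheRS-m was above CysRS-m in each replicate. AspRS-m stood at 0.757, 0.783 and 0.922, ProRS-m at 0.615, 0.777 and 0.929 and TrpRS-m at 0.772, 0.336 and 0.585. TrpRS-m was the lowest of the bound mitochondrial genes in mean, at 0.564 ± 0.218 (SD, n = 3), and its TSS was the sole one with the summit downstream, at 6 bp.

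The members without an IDR summit were low in each replicate that had a summit near them. MetRS-m was at 0.227, 0.362 and 0.481 in replicates 1, 2 and 4, taking the strongest replicate summit within 500 bp. AlaRS-m was at 0.285, 0.156 and 0.434 and AsnRS-m at 0.270, 0.230 and 0.255. SerRS-m was the lowest, at 0.156, 0.191 and 0.156. TyrRS-m had no such summit in replicate 2, IleRS-m and ValRS-m had none in replicate 4, and GluRS-m had a summit in replicate 1 alone, at 0.210. Over the 8 genes, replicate 1 held a summit at 8, replicate 2 at 6 and replicate 4 at 5. In replicate 2 the bound HisRS, at 0.319, and TrpRS-m, at 0.336, were below MetRS-m, so the border between bound and not bound is less sharp there than in the pooled list.

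Of the 27 bound members, 21 had their summit among the 7137 strongest of every replicate within 100 bp, 77.8%, beside 79.7% of all bound genes. Replicate 1 held 24 of them, replicate 2 held 23 and replicate 4 held 27. The exceptions were GluProRS, GlyRS, LeuRS, TyrRS and TrpRS-m, held by 2 replicates, and HisRS, held by replicate 4 alone.

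The summits lay upstream of the synthetase starts and mostly between divergent starts. The strongest IDR summit was upstream at 26 of 27 bound members, 96.3%, beside 89.6% of bound genes, with a median of -100 bp from the TSS for members and -86 bp for bound genes. The cytosolic median was -127 bp and the mitochondrial one -80.0 bp. At 19 of the 21 bound members with a divergent start the summit lay between both starts, the exceptions being AspRS and SerRS, where it lay downstream of the starts of Nmda1 and CG17260. The summit was nearer to the synthetase start at 8 of the 21 and nearer to the neighbour's at 13, and at 20 of them it was within 500 bp of the neighbour's start as well. These counts were not taken over all bound genes with a divergent start, so they are not read as particular to synthetases. Among all those genes the summit was upstream at 91.2%, with a median of -107 bp, beside 21 of 21 members, with a median of -134 bp. At ValRS the summit lay 459 bp from the ValRS start and 54 bp from that of Kdm4B, a histone demethylase gene. At GlyRS it lay 301 bp from the GlyRS start and 117 bp from that of Plp, a centrosomal protein gene. At MetRS it lay 192 bp from the MetRS start and 53 bp from that of CG15084. For such genes the count of bound synthetases is also a count of bound neighbours, and the peak cannot be assigned within the pair.

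**Figure D4:**
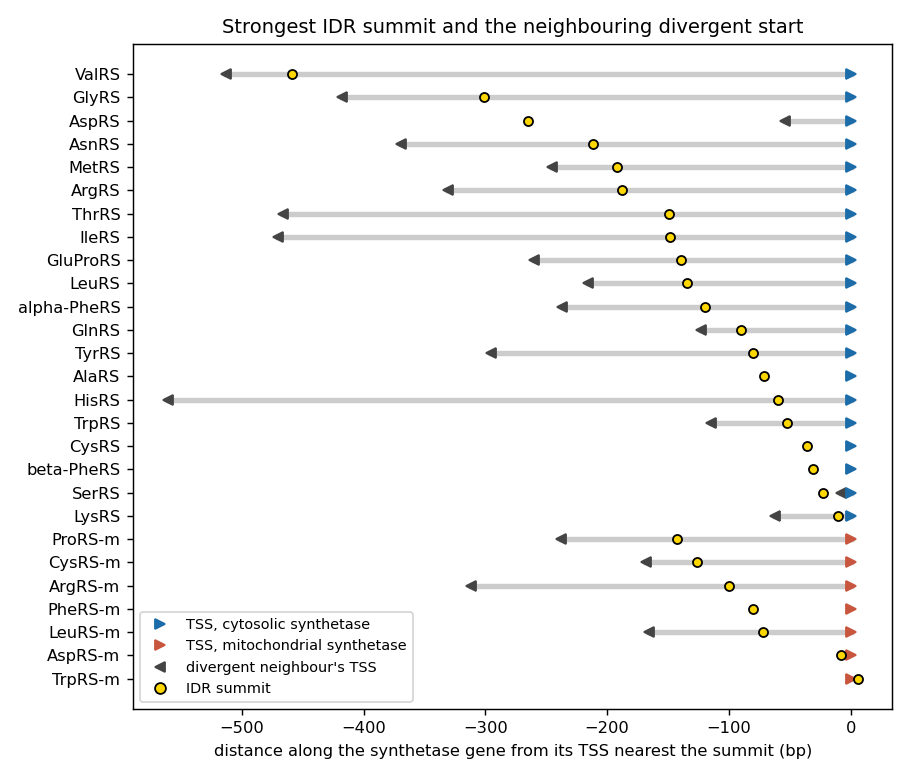
Rows are the 27 bound members, and the horizontal axis gives the distance in bp along the synthetase gene from its TSS nearest the summit; triangles mark the synthetase TSS at 0 and the divergent neighbour's TSS, the grey bar joins them and the circle is the strongest IDR summit. Circles lie upstream of 0 for all members but TrpRS-m, at 6 bp, and reach 459 bp upstream at ValRS.

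No searched motif was common to the bound starts. The motifs were the DNA replication-related element TATCGATA, Motif 1 (GGTCACACT), the E-box CAGCTG, the GAGA element GAGAG, the TATA box TATAAA, Motif 7 (CATCNCTA) and GCAACNCT, which earlier work picked from these libraries. They were searched on both strands within 100 bp on either side of the strongest IDR summit of each bound gene, and no motif contains another. TATCGATA was in 3 of 27 member windows, 11.1%, beside 18.3% of windows at all bound genes. These were TrpRS, AlaRS and PheRS-m, with the match starting at -20, 52 and 80 bp from the summit. GGTCACACT was in 4 windows (AspRS-m, GlnRS, ValRS and beta-PheRS), 14.8% beside 8.38%. GCAACNCT was in 4 (ArgRS-m, CysRS-m, TrpRS-m and beta-PheRS), 14.8% beside 9.59%. GAGAG was in 2, 7.41% beside 15.5%, CATCNCTA in 1, 3.70% beside 8.79%, and TATAAA in 13, 48.1% beside 33.0%. GluProRS, GlyRS and LysRS held none of the 7. The GC content of the windows had a median of 31.3% over the members and 36.3% over all bound genes, and the part of base composition in these shares was not tested.

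The E-box CAGCTG was more frequent in synthetase promoters than in promoters at large, in bound and other members alike. It was in 9 of 27 summit windows (ArgRS, CysRS, HisRS, IleRS, LeuRS-m, MetRS, TrpRS, TrpRS-m and TyrRS), 33.3% beside 16.2% of those at all bound genes. In the 300 bp from 250 bp before the 5′ end of the gene model to 50 bp after it, 17 of 35 members held it, 48.6%, beside 17.7% of the promoters of all protein-coding genes. Bound members held it at 13 of 27 and the others at 4 of 8, and cytosolic members at 10 of 20 and mitochondrial ones at 7 of 15. AlaRS-m, with 3 matches, TyrRS-m, with 2, GluRS-m and MetRS-m are the members that held it without an IDR summit. Higher shares in the synthetase promoters were not confined to the E-box. GGTCACACT was in 14.3% beside 6.05% of all promoters, GCAACNCT in 17.1% beside 6.56%, TATCGATA in 14.3% beside 9.36% and TATAAA in 54.3% beside 45.8%. GCAACNCT was picked from these libraries and members were bound more often than all genes, so its share is not independent of the peaks. GAGAG was lower, in 17.1% beside 29.7%, as was CATCNCTA, in 5.71% beside 6.42%. The shares are counts of letters in these windows and no test was made on them.

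Further windows show the motifs that the 8 above lack. They are AlaRS at chr2L:8381785-8381885 (minus strand), with Motif 7 and a TATA box, TyrRS at chr3L:16419332-16419432 (minus strand), with an E-box, and TrpRS-m at chr3L:17849683-17849783 (plus strand), with an E-box and with GCAACNCT at the summit, all in capitals.
AlaRS: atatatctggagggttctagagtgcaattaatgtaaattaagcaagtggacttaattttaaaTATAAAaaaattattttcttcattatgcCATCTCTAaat
TyrRS: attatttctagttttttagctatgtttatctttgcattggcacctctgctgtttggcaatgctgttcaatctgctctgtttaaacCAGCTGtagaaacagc
TrpRS-m: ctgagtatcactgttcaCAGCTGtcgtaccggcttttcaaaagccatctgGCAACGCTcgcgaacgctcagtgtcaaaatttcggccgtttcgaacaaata
The first 2 are cytosolic genes at a mean relative signal of 2.01 and 1.42, and TrpRS-m is the mitochondrial gene at 0.564.

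Genes that work beside the synthetases were listed apart by known function (complex scaffold, synthetase-like protein, amidotransferase, deacylase, elongation factors and the response to uncharged tRNA), and 11 of 13 were bound, beside the 42.6% of all genes. Of these 13, the 7 with a divergent start were all bound, beside 73.6% of genes so arranged, and 4 of the 6 with no other start within 1000 bp, beside 23.8%. The starts of crc and GatC coincide with annotated starts of CG46314 and PolG2, so their peaks cannot be assigned to either gene. The scaffold genes of the multisynthetase complex were all bound. AIMP3 stood at 23.7, 22.4 and 24.0 in replicates 1, 2 and 4, a mean of 23.4 ± 0.860 (SD, n = 3), with its summit 8 bp downstream of the TSS and no start of another gene within 1000 bp. AIMP1 stood at 0.939 ± 0.199 and AIMP2 at 0.815 ± 0.227, so only AIMP3 exceeded every cytosolic synthetase. Slimp, a synthetase-like mitochondrial protein gene, stood at 0.582 ± 0.179. GatA, GatB and GatC, which encode the mitochondrial glutamyl-tRNA amidotransferase, stood at 0.597 ± 0.225, 0.837 ± 0.236 and 1.28 ± 0.346. Gcn2, the kinase that senses uncharged tRNA, stood at 1.42 ± 0.0906, and crc, the fly ATF4, at 1.26 ± 0.566. Of the elongation factor genes that carry charged tRNA, eEF1alpha1 stood at 1.18 ± 0.387 and mEFTu1 at 0.579 ± 0.212, while eEF1alpha2 had no IDR summit and a pooled signal of 78.9. Dtd, a D-aminoacyl-tRNA deacylase gene, had none either, with a pooled signal of 78.8.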

How the data were processed

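The authors deposited peak lists in narrowPeak form on dm6 and dm3. The dm6 lists were used: 3 replicate lists and a pooled list of 30000 peaks each, and an optimal IDR list of 7137. Which aligner and caller made them, and at what IDR threshold, is not given in the sources used here. Library depth is unknown, and the dm3 lists were not used. Per the deposited description each list was made from the alignments and a further file, which the signal tracks made from it call a control. The signal of a peak is the authors' deposited signal value, whose scale is not stated, used within a list or over a replicate median (77.8, 99.0 and 133 in replicates 1, 2 and 4). The deposited −log10 q of each peak entered no comparison.

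Gene models of Ensembl release 115 gave the TSSs, and the RefSeq genome the sequence, both of the dm6 assembly, 1-based. Transposable elements were not counted as neighbouring genes. Where a gene had several summits the strongest was taken. Python 3.11.15, numpy 2.4.6, pandas 2.3.3 and scipy 1.17.1 were used, and summit assignment and motif search were tested on simulated data. Nothing in the labels beyond the replicate numbers describes separate embryo collections, so the spread may be in part technical. All members are named; sequences are those of the strongest members of each compartment on arms other than 2R, with up to 4 further ones for motifs not yet shown. Members, lists and motifs were chosen with earlier results of these data known. Counts of genes are descriptions, and no test was made.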

Additional observations from a re-analysis of the deposited data

How the results depend on the processing

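The count of bound synthetase genes stayed between 23 and 27 under several settings. These were promoter windows of 250 and 1000 bp, the 5′ end of each gene model in place of all TSSs, and IDR peaks recovered in every replicate. The others were IDR peaks without a stronger pooled summit within 400 bp, and each replicate left out (only IDR peaks that the other replicates recovered). Under these settings the share of all protein-coding genes bound ran from 34.9%, with peaks recovered in every replicate, to 45.6%, with the 1000 bp window. The 5′ ends gave 26, with the cytosolic AspRS lost. The count was 35 with all pooled peaks, beside 60.4% of all protein-coding genes. With the stronger IDR peaks by pooled signal, those above the median rank, it was 17 (15 cytosolic and 2 mitochondrial), with a median relative signal of 1.76, a median summit position of -139 bp and 1 bound gene with no other start nearby, while 29.4% of all protein-coding genes were bound. The counts fall with the smaller list by construction. Leaving out a replicate gave 23 to 25 bound members, beside 36.3% to 37.7% of all protein-coding genes. The summit position then ran from -123 to -90 bp, and the cytosolic count was 17 to 18, HisRS being lost each time. The summit position was -84 bp with a window of 250 bp and -90 bp with all pooled peaks, which bring the bound genes with no other start nearby to 9. That count was 7 when other starts were sought within 500 bp, a rule that changes which genes qualify. The shares of all such genes are not given here for these counts of 1, 9 and 7, so they are not read against a background. With the 3568 strongest summits of each replicate 12 members were recovered in every replicate. A match distance of 50 bp gave 14 recovered members and 200 bp gave 24, in place of 21 at 100 bp. The shares of all bound genes recovered under these settings are not given here. Division by the median of the whole replicate list gave a median relative signal of 5.18. TATCGATA was in 1 member window of 50 bp on each side and 7 of 250 bp, and the shares of all bound genes at these sizes are not given here. The higher subunit gene for phenylalanine, an alternative chosen after seeing the data, put the cytosolic gene above for 13 of 15 amino acids in place of 12. No paired analysis was possible because there is a single group. Depth is unknown, so a start without an IDR summit may carry signal that these lists do not call.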

Other observations

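The mitochondrial members that had a divergent start and no IDR summit were those with the closest starts. AlaRS-m starts 35 bp from Fitm, AsnRS-m 53 bp from ste24a and TyrRS-m 55 bp from CG3589, whereas the bound mitochondrial members with a divergent start had gaps of 166 bp at LeuRS-m, 168 bp at CysRS-m, 238 bp at ProRS-m and 312 bp at ArgRS-m. With gaps up to 60 bp, 2 of 5 members were bound, SerRS and AspRS, both cytosolic. Among all protein-coding genes the same gaps gave 358 bound of 449, 79.7%. With gaps of 61 to 200 bp 5 of 5 members were bound, beside 77.8% of genes, and with gaps of 201 to 400 bp 9 of 9, beside 84.6%. With gaps of 401 to 1000 bp 5 of 5 members were bound, beside 58.2% of genes. The grouping by gap was chosen after the values were seen, and no test was made.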
